A study of Homo sapiens with 7 samples.

Results

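In Kasumi-1 cells with PHF19 knockdown, 2663 regions of open chromatin that lie over an annotated transcription start were listed as more accessible than in cells with a scrambled control. They were selected on the authors' group means and annotation. A region was taken where the knockdown mean was above the control mean, the deposited feature was a promoter within 1 kb, the deposited distance to the start was 0 bp and the chromosome was not 7. They were 35.2% of the 7573 gained regions outside chromosome 7 (95% Clopper-Pearson interval 34.1 to 36.3%, which covers counting error only), 74.0% of the 3601 gained promoter regions within 1 kb there, and part of 8815 listed regions in all. The share of all tested regions that lie over a start was not counted, so these shares have no background here. The 35.2% also depends on the limits set for FDR, fold and reads, as given near the end. The 2663 regions belonged to 2602 genes. Since the rule used the fold and the annotation, the direction of the change is a description and is not tested here.

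The assay was ATAC-seq, which uses a transposase to cut and tag open DNA, on 10000 cells per library. There were 3 libraries from cells given a lentiviral shRNA against PHF19 and 4 from cells given a scrambled shRNA. Both groups were Kasumi-1, an established cell line of acute myeloid leukaemia with the RUNX1-RUNX1T1 fusion, and both were selected with puromycin at 2 µg/ml from 48 hours after the shRNA for at least 24 hours. The labels do not give whether each library was a separate culture, or how many shRNA sequences were used, so the spread behind the authors' p-values is that among these 7 libraries and may be a technical one. Read counts, log2 folds (knockdown over control) and false discovery rates (FDR) are from the authors' deposited table, which gives group means only. Values of single libraries, their SD and their depth are therefore not printed.

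PHF19 is a Polycomb-like protein that helps to bring Polycomb repressive complex 2 (PRC2) to DNA, where the complex methylates histone H3 at lysine 27. Many targets of PRC2 are silent developmental genes with CpG-rich promoters. The DNA around the start of an active gene is usually kept free of nucleosomes, and there RNA polymerase II, general factors and promoter-binding proteins such as Sp, ETS and NRF1 factors assemble. CpG-rich starts are typical of genes that most cells use, whereas TATA-box starts are typical of regulated and tissue-restricted genes.

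To show what such a start looks like, the promoters of 8 of the genes described below are given from RefSeq (GRCh38.p14), from 200 bases before to 20 bases after the RefSeq start, 5′ to 3′ on the gene's strand. CYB5A, KIF2A, ZNF141, HTATSF1 and SPCS3 are among the largest folds, and MTMR12, P4HB and VMAC are those with the most reads. The RefSeq start need not be the start the authors' annotation used. The windows are chr18:74291944-74292163 (minus strand) for CYB5A, chr5:62306006-62306225 (plus) for KIF2A, chr4:337614-337833 (plus) for ZNF141, chrX:136497029-136497248 (plus) for HTATSF1, chr4:176319766-176319985 (plus) for SPCS3, chr5:32312920-32313139 (minus) for MTMR12, chr17:81860516-81860735 (minus) for P4HB and chr19:5904672-5904891 (plus) for VMAC. Capitals mark matches, on either strand, to the motifs named after the sequences.
CYB5A: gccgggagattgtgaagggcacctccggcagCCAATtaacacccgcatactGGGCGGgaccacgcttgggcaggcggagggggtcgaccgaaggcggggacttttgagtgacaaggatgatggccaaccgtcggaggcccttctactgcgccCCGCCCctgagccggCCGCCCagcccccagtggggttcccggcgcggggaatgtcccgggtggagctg
KIF2A: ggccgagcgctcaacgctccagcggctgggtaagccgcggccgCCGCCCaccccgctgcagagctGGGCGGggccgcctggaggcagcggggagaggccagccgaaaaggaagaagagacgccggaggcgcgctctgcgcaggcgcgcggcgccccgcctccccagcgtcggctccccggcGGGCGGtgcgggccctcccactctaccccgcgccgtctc
ZNF141: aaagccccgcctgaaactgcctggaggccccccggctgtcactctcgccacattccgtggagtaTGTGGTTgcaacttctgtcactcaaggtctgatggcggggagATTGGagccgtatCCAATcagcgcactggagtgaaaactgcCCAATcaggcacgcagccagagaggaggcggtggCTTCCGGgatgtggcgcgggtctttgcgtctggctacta
HTATSF1: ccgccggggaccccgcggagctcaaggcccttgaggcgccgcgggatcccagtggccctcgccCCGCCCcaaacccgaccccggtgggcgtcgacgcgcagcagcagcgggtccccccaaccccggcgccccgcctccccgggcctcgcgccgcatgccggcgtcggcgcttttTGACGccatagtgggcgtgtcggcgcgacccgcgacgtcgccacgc
SPCS3: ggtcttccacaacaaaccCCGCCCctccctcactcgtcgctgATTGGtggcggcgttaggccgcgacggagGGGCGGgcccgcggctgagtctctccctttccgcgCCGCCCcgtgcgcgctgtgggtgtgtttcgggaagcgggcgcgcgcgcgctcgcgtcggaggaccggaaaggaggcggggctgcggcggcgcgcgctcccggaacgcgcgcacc
MTMR12: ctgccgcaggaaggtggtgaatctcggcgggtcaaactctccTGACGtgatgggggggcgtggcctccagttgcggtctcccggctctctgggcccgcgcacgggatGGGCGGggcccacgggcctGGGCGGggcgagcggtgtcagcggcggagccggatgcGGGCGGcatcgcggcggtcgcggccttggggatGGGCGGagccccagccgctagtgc
P4HB: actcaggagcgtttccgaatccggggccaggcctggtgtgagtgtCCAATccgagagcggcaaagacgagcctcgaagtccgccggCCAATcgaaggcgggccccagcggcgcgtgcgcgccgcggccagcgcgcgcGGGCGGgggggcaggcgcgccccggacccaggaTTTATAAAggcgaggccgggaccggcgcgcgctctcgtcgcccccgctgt
VMAC: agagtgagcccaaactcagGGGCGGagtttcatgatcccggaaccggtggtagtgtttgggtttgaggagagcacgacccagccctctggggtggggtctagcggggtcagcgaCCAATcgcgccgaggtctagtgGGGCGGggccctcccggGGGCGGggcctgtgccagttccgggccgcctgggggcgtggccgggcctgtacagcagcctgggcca
The capitals are GC boxes (GGGCGG, bound by Sp and KLF factors), CCAAT boxes (CCAAT, bound by NF-Y), short CRE sites (TGACG), the ETS core (CCGGAAG), the RUNX site (TGTGGTT) and the TATA box (TATAAA). GC boxes matched in 7 of the 8 promoters, with 4 in MTMR12 and 3 each in CYB5A, KIF2A, SPCS3 and VMAC. ZNF141 had no GC box, but it had 3 CCAAT boxes, 1 ETS core and 1 RUNX site. P4HB was the only one of the 8 with a TATA box, matched on both strands at overlapping positions. GC content of these windows ran from 60.0% in ZNF141 to 78.6% in KIF2A and HTATSF1.

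Across the regions over a start, the authors' mean normalised reads had a median of 52.8 in knockdown cells (interquartile range 37.3 to 71.4) and 25.9 in control cells (17.4 to 36.6). The deposited log2 fold had a median of 0.86 (interquartile range 0.742 to 0.999) and ran from 0.59 to 2.25. The plain difference of the log2 group means was larger than the deposited fold in all 2663, with a median of 1.02, and at 1435 regions (53.9%) the knockdown mean was at least 2 times the control mean. An FDR of at most 0.01 was held by 1485 (55.8%), a log2 fold of at least 1 by 661 (24.8%) and an overall mean of at least 10 reads by 2613 (98.1%). Most starts thus had reads in control cells too, and the shift at them was moderate. As background, 16.4% of the 52675 regions implied by the deposited p-values and FDR were listed as higher in knockdown cells and 0.38% as lower. Nothing is read from these, because the rule used the same contrast.

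**Figure D1:**
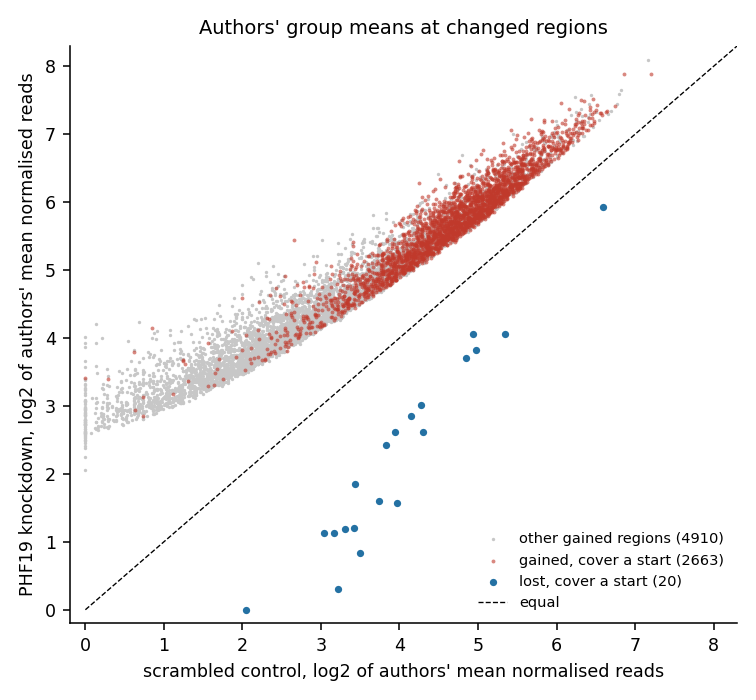
Authors' mean normalised reads on a log2 scale in the PHF19 knockdown (vertical) and the scrambled control (horizontal), 1 point per region outside chromosome 7. The 2663 gained regions over a start (red) sit mostly at the upper right of the other 4910 gained regions (grey), and the 20 lost regions over a start (blue) lie below the dashed line of equal means.

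The folds were largest where reads were few. In the 25% of regions with the lowest overall mean the median log2 fold was 0.93, with median reads of 28.9 in knockdown cells and 12.5 in control cells. The next 25% had a median of 0.85 and those after them 0.82. The 25% with the highest mean had 0.81, with 88.8 reads in knockdown cells and 45.9 in control cells. The share with an FDR of at most 0.01 went the other way, at 38.7%, 50.9%, 59.1% and 74.3%. The smallest fold listed past the authors' FDR threshold of 0.05 was 0.68 among the lowest and 0.59 among the highest. Spearman's rho between fold and level over the 2663 regions was −0.26, given as a description, since both come from the same libraries.

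The largest fold over a start was at CYB5A, the gene of cytochrome b5, an electron carrier of lipid metabolism (chromosome 18, 71959146 to 71959546 as deposited). It had 43.4 reads in knockdown cells and 6.33 in control cells, a log2 fold of 2.25. KIF2A, a kinesin that depolymerises microtubules, had 77.8 reads in knockdown cells and 18.96 in control cells (log2 fold 1.80; chromosome 5, 61601739 to 61602139). SPCS3, a subunit of the signal peptidase, had 81.2 reads in knockdown cells and 22.9 in control cells (1.64; chromosome 4, 177240807 to 177241207). KIF2A and SPCS3 combined a large fold with many reads, whereas CYB5A, with an overall mean of 22.2, was among the 25% of regions with the lowest mean. The FDR was 7.05e-09 for CYB5A, 3.01e-09 for KIF2A and 1.38e-08 for SPCS3.

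Most of the other large folds rested on fewer reads. RPL15, a protein of the large ribosomal subunit, had 30.1 reads in knockdown cells and 5.81 in control cells (log2 fold 1.81). SERTM2, a membrane protein gene on the X chromosome, had 24.2 in knockdown cells and 3.97 in control cells (1.87). The zinc finger gene ZNF221 had 26.7 in knockdown cells and 5.39 in control cells (1.75), and ZNF141 had 24.8 and 5.10 in the same order (1.70). AKAP7, an anchor of protein kinase A, had a log2 fold of 1.68, and HTATSF1, an RNA-binding factor linked to transcription elongation and splicing, had 1.65.

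The smallest FDR over a start was at LCORL, whose longer product is an accessory subunit of PRC2. It had 134 reads in knockdown cells and 42.8 in control cells, a log2 fold of 1.52 and an FDR of 4.97e-10 (chromosome 4, 18023476 to 18023876). CCDC59 followed with 149 reads in knockdown cells and 51.1 in control cells (1.42, FDR 2.72e-09). OR2L13, an olfactory receptor gene, had 104 reads in knockdown cells and 32.8 in control cells (1.505, FDR 1.32e-08). The most reads were at MTMR12, a myotubularin-related protein, with 237 in knockdown cells and 147 in control cells and a log2 fold of 0.63. P4HB, the protein disulfide isomerase of the endoplasmic reticulum, also reached 237 in knockdown cells, against 116 in control cells (0.95). VMAC had 172 in knockdown cells and 107 in control cells. TARS1, which encodes threonyl-tRNA synthetase, had 184 in knockdown cells and 88.2 in control cells, and SRSF2, a splicing factor mutated in some myeloid neoplasms, had 173 and 91.7 in the same order.

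The lower edge of the set is given as values. The smallest folds were at GDI2, a regulator of Rab GTPases, with 74.1 reads in knockdown cells and 47.0 in control cells (0.59), and at MBOAT1, RETREG3, PRKAG1 and FAM177A1 (0.59 each). The FDR came nearest to 0.05 at C15orf40 (0.0499936 as deposited), LARP1B, IL18BP, CDKN2B-AS1 and POLR3C. The fewest reads were at GZMA, which encodes granzyme A of cytotoxic lymphocytes, with 7.23 in knockdown cells and 1.66 in control cells, followed by SMAD9, GASK1B, ZNF493 and LOC202181. ZNF493 was the only region at the floor of 1 read in control cells. Just outside the rule, the regions at MSANTD4, INTS13 and ANKRD11 ended 1 bp from the start and those at KANSL1L and NFYC 2 bp from it. Their log2 folds were 1.05, 0.91, 0.61, 1.15 and 0.99, within the range of the regions that did reach a start.

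The regions sat slightly upstream of the start they covered. Of the 2663, 2376 (89.2%) had the standard deposited width of 401 bp and 287 were wider. Among the 401-bp regions the centre lay upstream of the start in 1649 (69.4%), at it in 18 and downstream in 709, with a median position of −42 bp and an interquartile range of −95 to 13.2 bp. The rule itself limits a 401-bp region to 200 bp on either side, but not the side on which its centre falls. The upstream shift was similar on both strands, with medians of −42 bp for 1193 regions on the plus strand and −41 bp for 1183 on the minus strand. Centres lay within 100 bp of the start in 68.9%. The 25% of regions with the largest fold had a median of −32.5 bp and the 25% with the smallest −56 bp (594 regions each).

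**Figure D2:**
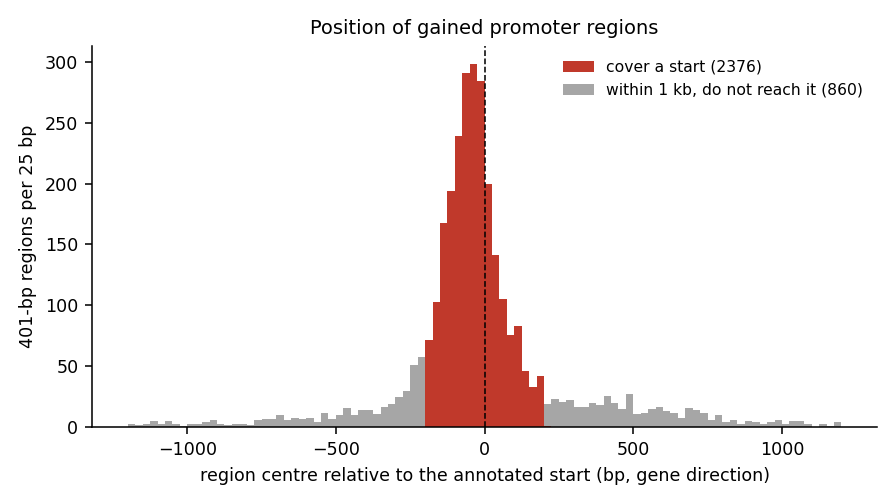
Number of 401-bp gained regions per 25 bp by the position of the region's centre relative to the annotated start (negative is upstream). The 2376 regions over a start (red) peak upstream of the dashed line at 0, with a median of −42 bp, and the 860 gained regions within 1 kb that do not reach it (grey) thin out on both sides.

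The widest regions over a start were at TIMM9, an import factor of the mitochondrial inner membrane, with 1425 bp, and at the zinc finger gene ZBTB1 with 1266 bp. PRRC2C had 1219 bp, YWHAZ, which encodes a 14-3-3 protein, had 1164 bp, and CEBPD, a transcription factor of myeloid cells, had 1151 bp. The log2 folds of these 5 ran from 0.76 at CEBPD to 0.94 at ZBTB1.

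Most genes had a single gained start. In all, 57 genes had 2 regions, each over an annotated start, and 2 genes had 3, ING1 and MSL3. ING1, a reader of methylated histone H3 lysine 4, had log2 folds of 0.88, 0.83 and 0.75, and MSL3, a subunit of a histone H4 acetyltransferase complex, had 0.97, 0.91 and 0.91. Among the pairs, RBBP7 had one region with 52.5 reads in knockdown cells and 22.4 in control cells (1.05) and another with 19.2 and 6.31 in the same order (1.14). Regions of one gene are not independent of each other. Beside the start, 654 of the 2602 genes (25.1%) had at least 1 further gained region. These were 1038 of the 4910 other gained regions outside chromosome 7, and 308 of the 1038 lay at promoters of 278 genes. The share of all genes with a gained region away from a start was not counted, so the 25.1% has no background here. At 7 genes a region elsewhere was lost, among them P4HB, where an intronic region was at the floor of 1 read in knockdown cells and at 7.003 reads in control cells.

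The gained regions over a start had more reads than the other gained regions outside chromosome 7. The 938 within 1 kb that did not reach the start had median reads of 37.0 in knockdown cells and 16.8 in control cells, and a median log2 fold of 0.92. The 249 promoter regions farther out, between 1 and 3 kb, had 25.02 in knockdown cells, 10.1 in control cells and 0.94. The 3723 outside promoters had 16.8 in knockdown cells, 5.48 in control cells and 1.02. Overall means under 10 reads made up 1.88% of the regions over a start, 10.6% of those close by, 26.5% of those farther out and 47.8% of those outside promoters. An FDR of at most 0.01 was held by 55.8%, 46.8%, 40.2% and 36.2% in the same order. So from the regions over a start to those outside promoters, reads and the share with a small FDR were lower and the fold was higher. The smallest fold past the FDR threshold was larger where reads were few, as given above. The part of read level in the folds of these classes was not tested. These classes were all chosen on the same contrast and no test was made between them.

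**Figure D3:**
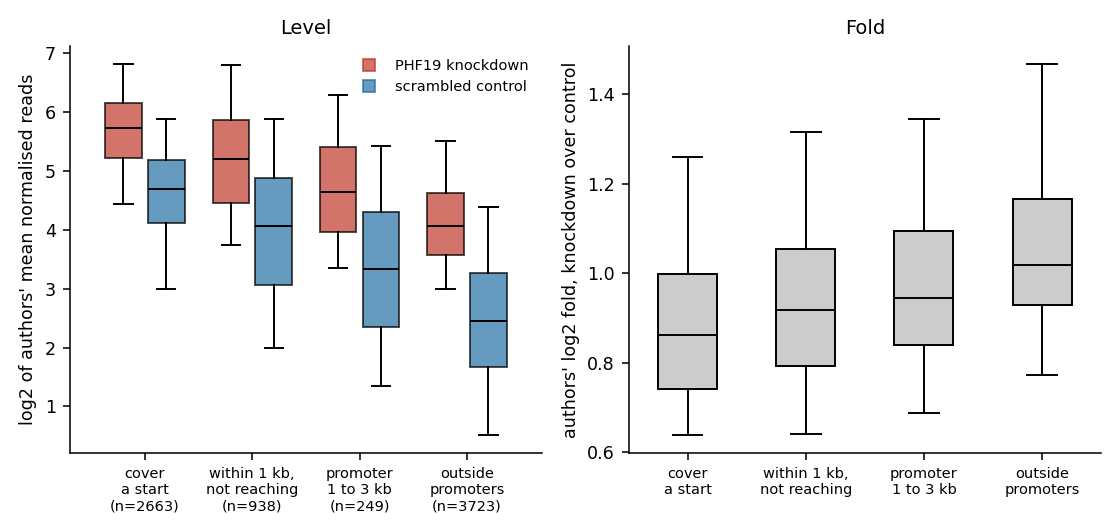
Left, log2 of the authors' mean normalised reads in the PHF19 knockdown (red) and the scrambled control (blue) for 4 classes of gained region outside chromosome 7. Right, the authors' log2 fold, knockdown over control. Boxes show the median and quartiles and whiskers the 5th and 95th percentiles of regions. The median level is highest over a start (52.8 reads in knockdown cells and 25.9 in control cells) and the median fold is lowest there (0.86).

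By gene type, 2505 of the regions lay over starts of protein-coding genes, 116 over long noncoding RNA genes, 21 over transcribed pseudogenes and 13 over microRNA genes. The authors' annotation names a single gene for each region. A region that also covers the start of a neighbouring gene is therefore counted under the named gene only. The types are RefSeq labels taken as they stand, by which ORAI1 is counted among the transcribed pseudogenes. Where a pseudogene has a parent gene, reads can come from that gene, so those are uncertain. The largest noncoding fold was at SPAG16-DT, a divergent transcript, with 17.7 reads in knockdown cells and 1.81 in control cells (log2 fold 1.94). NEAT1, the RNA that scaffolds paraspeckles, had 45.9 in knockdown cells and 16.5 in control cells (1.25). MIR155HG, the host gene of the oncogenic microRNA miR-155, had 28.5 in knockdown cells and 9.57 in control cells (1.25), and MIR155 itself 11.3 and 3.14 in the same order (1.06). The annotated start of a microRNA gene need not be a start of transcription, since a microRNA can lie inside a host gene. RNU4ATAC, a small nuclear RNA of the minor spliceosome, had 54.9 in knockdown cells and 19.2 in control cells (1.29). RPPH1 and RMRP, the RNA subunits of RNase P and RNase MRP, had 0.88 and 0.81.

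Among all protein-coding genes outside chromosome 7, 12.8% (2446 of 19036) had a gained region over a start and 0.0998% a lost one. That background includes genes with no listed region, and the part of gene activity, which was not measured, in the counts below was not tested. A gene whose start was covered only by a region named for a neighbouring gene is not counted as having a gained start. The 32 gene lists below were written with earlier results of these data known and hold 1499 genes. They are described by counts and shares, with no test of a list against the background. An interval of a share covers counting error only and treats genes as independent. Whether it includes the background is a description, and lists given without an interval are not thereby shown to differ. A median fold is that of the genes with a gained start, taking the largest where a gene had several, against 0.86 over all such coding genes.

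Genes for making and folding proteins often had a gained start. Of 79 cytosolic ribosomal protein genes, 34 had one, with log2 folds from 0.62 to 1.81 and a median of 0.81. After RPL15 came RPL30 with 50.4 reads in knockdown cells and 16.3 in control cells (1.40), RPL12 (1.22), RPL24 (1.20) and RPS18 (1.17). Of 46 translation factors 18 had one, led by EIF4G2, which supports cap-independent initiation, and by the elongation factor EEF2 (1.13). The EIF4G2 region with the larger fold had 22.6 reads in knockdown cells and 5.75 in control cells (1.45). Another EIF4G2 region over a start had more reads, 94.8 and 52.4 in the same order, and a smaller fold (0.78). EEF1A1, which delivers aminoacyl-tRNA to the ribosome, had 94.6 in knockdown cells and 51.3 in control cells over its start (0.81) and a larger fold in a region 426 bp downstream (2.11). Of 20 aminoacyl-tRNA synthetases 8 had one, with RARS1 (1.20) and LARS1 (1.03) ahead. Of 44 chaperone genes 19 had one. DNAJA1, a co-chaperone of HSP70, had 92.5 in knockdown cells and 30.1 in control cells (1.44), and HSPA8, the constitutive HSP70, had 180 in knockdown cells and 81.4 in control cells (1.07).

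RNA processing and energy genes followed. Of 68 splicing genes 26 had a gained start, with U2AF1, which recognises the 3′ splice site and is mutated in myeloid neoplasms, at 60.1 reads in knockdown cells and 21.7 in control cells (1.27). General transcription genes had 21 of 73, led by GTF2A1 (1.20) and the Mediator subunits MED4 (1.11) and MED14 (1.09). Respiratory chain genes had 18 of 72, with COX7A2 (1.42), NDUFB6 (1.40) and COX7C (1.35) first. The mitochondrial ribosome had 16 of 72, the secretory pathway 17 of 70, the proteasome 8 of 35, DNA replication 9 of 43 and mitosis 8 of 50. For the proteasome (10.4 to 40.1%), replication (10.04 to 36.0%) and mitosis (7.17 to 29.1%) the 95% Clopper-Pearson interval of the share included the background. PSMD6 led the proteasome (1.26), POLA1, the catalytic subunit of DNA polymerase alpha, led replication (1.12), and the phosphatase CDC25C led mitosis (1.29).

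Stress, signalling and growth control genes were also represented. Cell-cycle inhibitors had 9 of 27, among them E2F7 with 91.2 reads in knockdown cells and 35.0 in control cells (1.24), BTG1 (1.10), GADD45B (1.09) and CDKN2A, which encodes p16 and p14ARF (1.03). Apoptosis genes had 9 of 31, and their list was led by the survival factor MCL1 (1.05) and included the caspase inhibitors XIAP (0.98) and BIRC2 (0.97). Genes that promote cell death were in it too, with FADD (0.96), PMAIP1 (0.95), BCL2L11 (0.93) and CASP9 (0.80). Immediate early genes had 13 of 39, with JUND at 94.1 in knockdown cells and 38.0 in control cells (1.16). FOS had gained regions 41 bp upstream and 135 bp downstream of its start but none over it. NF-κB genes had 10 of 31, led by the inhibitor NFKBIA (1.18) and the chemokine CXCL8 (1.15), and stress genes 8 of 27, including the transcription factor DDIT3 (1.004). Sterol and fatty acid genes had 5 of 33, with INSIG2 (1.28) and MSMO1 (1.13) after CYB5A. Interferon response genes had 6 of 39 and KRAB zinc finger genes 12 of 67. For the sterol (5.11 to 31.9%), interferon (5.86 to 30.5%) and zinc finger lists (9.61 to 29.2%) the interval included the background.

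Polycomb and other chromatin genes were mixed. PHF19, the gene targeted by the shRNA, had a gained region over its own start with 55.2 reads in knockdown cells and 31.5 in control cells (0.72, FDR 0.0204; chromosome 9, 123639126 to 123639897), which shows nothing of its RNA level. Of 14 PRC2 genes 4 had one: LCORL, RBBP7, PHF19 and RBBP4 (0.71). EED, the subunit that reads methylated lysine 27, had a gained region 171 bp downstream of its start with 78.2 in knockdown cells and 26.1 in control cells (1.40). SUZ12, JARID2 and MTF2 had no listed region. PRC1 genes had 6 of 24, led by SCML2 (1.12), and for both complexes the interval included the background (8.39 to 58.1% for PRC2 and 9.77 to 46.7% for PRC1). Other chromatin modifiers had 23 of 84, led by TET2, which oxidises methylcytosine, with 28.4 in knockdown cells and 6.81 in control cells (1.53), and by the remodeller CHD7 (1.22).

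Lineage and developmental genes seldom had a gained start. Developmental transcription factors had 2 of 92, ONECUT1 with 14.1 reads in knockdown cells and 3.98 in control cells (1.19) and TBX3 with 74.0 and 37.4 in the same order (0.85), although 30 of the 92 had a gained region of any kind. Of 28 HOX genes outside chromosome 7 none had one, nor did any of 38 keratin and epithelial genes (upper limits of the 95% Clopper-Pearson intervals 12.3% and 9.25%). Neuronal genes had 3 of 55 and 23 with any gained region. Stem and progenitor genes had 3 of 43 (RUNX1, IKZF2 and HAVCR2) and 22 with any. The background of 12.8% is for starts and does not apply to these counts with any gained region. The share of all coding genes with any gained region was not counted. Of 11179 coding genes with a single listed promoter, 8505 had no listed region, gained or lost. RUNX1, whose fusion defines this line, had 46.0 in knockdown cells and 20.4 in control cells (0.98), and reads here cannot be assigned to the fused or the intact allele. RUNX1T1 and the receptor gene KIT had gained regions away from their starts only, and SPI1 and CEBPA had no listed region. Myeloid genes had 2 of 43, lymphoid genes 1 of 36, erythroid and megakaryocyte genes 2 of 27 and core histone genes 1 of 55. For the neuronal, stem, myeloid, lymphoid and erythroid lists the interval of the share reached above the background, to 15.1, 19.1, 15.8, 14.5 and 24.3% in that order, so the lower shares of these lists were within counting error of it.

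**Figure D4:**
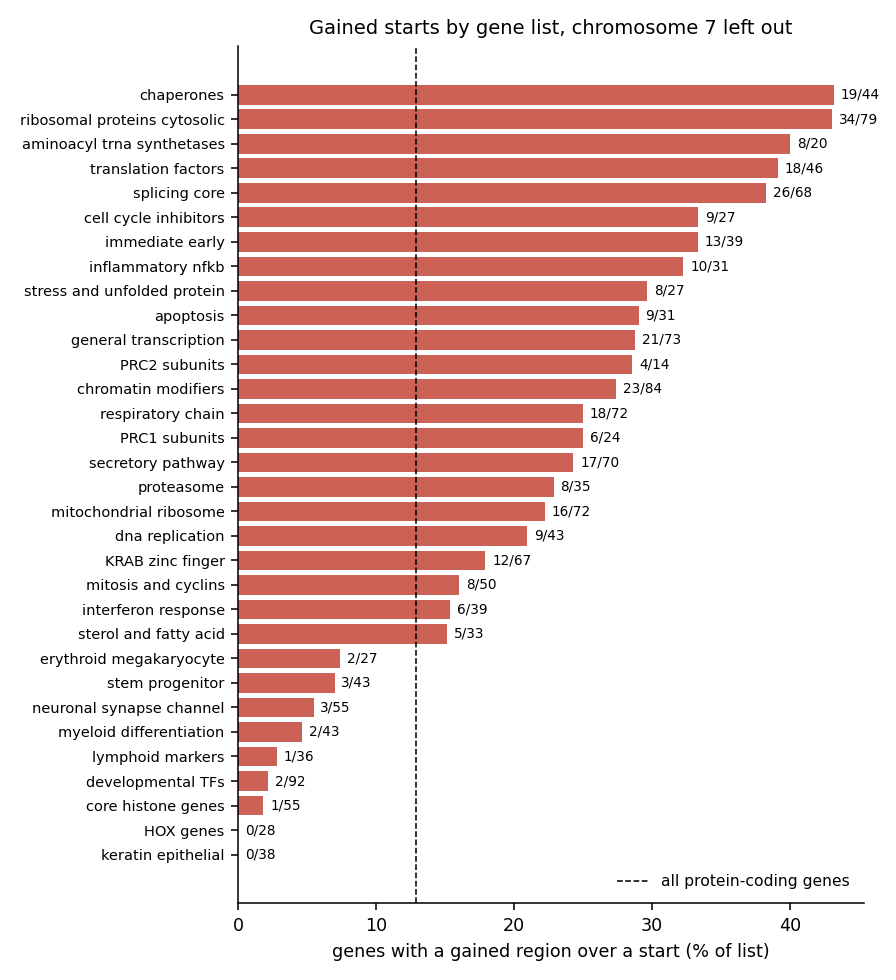
Percentage of the genes of each of 32 lists with a gained region over a start (bars, with counts of genes beside them), and the share among all protein-coding genes outside chromosome 7 (dashed line, 12.8%). Bars run from 19 of 44 chaperone genes at the top to 0 of 28 HOX genes and 0 of 38 keratin and epithelial genes at the bottom.

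The promoter sequences of the genes were set beside those of all protein-coding genes and of all promoters, sets that include them, using the 300 bases from 250 before to 50 after the RefSeq start. RefSeq promoters matched 2187 of the 2602 genes (84.1%), and the 1557 with a single listed promoter were used. Median GC content was 66.0% for genes with a gained start, 62.7% for 11179 protein-coding genes outside chromosome 7 and 57.7% for all 20992 promoters. The ratio of observed to expected CpG had medians of 0.89, 0.77 and 0.53. CpG-rich promoters (ratio of at least 0.6 and GC of at least 50%) made up 90.9%, 64.0% and 45.2%. Another gene started on the opposite strand within 1000 bp in 31.9%, 20.1% and 18.5%. Among 8505 protein-coding genes with no listed region, 58.9% of promoters were CpG-rich and 18.7% had such a neighbour. For 354 genes whose gained promoter region did not reach the start, 90.7% of promoters were CpG-rich and 25.4% had such a neighbour. A high CpG content was thus also found where the gained region did not reach the start.

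Motifs were counted on both strands as exact letters. The GC box was present in 75.1% of promoters of genes with a gained start (interval 72.9 to 77.3%), 58.9% of coding promoters and 43.1% of all. The ETS core was in 27.2% (24.97 to 29.5%), 15.1% and 10.7%, and the short CRE site (TGACG) in 40.5%, 29.9% and 24.7%. NRF1 (GCGCATGCG) was in 5.59%, 2.89% and 2.10%, and the ZBTB33 site (TCGCGAGA) in 3.92%, 1.87% and 1.20%. The E-box (CACGTG) was in 12.7%, 8.90% and 7.33%, the YY1 core (AAGATGG) in 9.18%, 6.76% and 6.28%, the ZNF143 core (CTACAATTC) in 1.28%, 0.483% and 0.353%, and the CRE palindrome (TGACGTCA, which contains the short site) in 4.05%, 2.83% and 2.01%. In the 8505 protein-coding genes with no listed region, the GC box was in 55.9% and the ETS core in 13.3%. In the 354 genes whose gained promoter region did not reach the start, the GC box was in 74.9%. There the short CRE site was in 37.6% and the ETS core in 19.5%. A high share of the GC box was thus also found where the gained region did not reach the start. The CCAAT box had nearly equal shares, at 37.4%, 37.4% and 36.2%.

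The TATA, GATA, AP-1 and CEBP motifs were less frequent than in coding promoters. The TATA box was in 5.97% of promoters of genes with a gained start (interval 4.85 to 7.27%), 10.6% of coding promoters and 12.8% of all. The site of GATA factors (AGATAA) was in 4.17%, 7.87% and 10.9%, AP-1 (TGANTCA) in 3.21%, 5.72% and 8.01%, and CEBP (TTGCNNAA) in 5.91%, 8.39% and 10.9%. The 354 genes whose gained promoter region did not reach the start had low shares too. These were 6.78% for TATA, 2.54% for GATA, 2.82% for AP-1 and 4.24% for CEBP. RUNX was in 4.05% (interval 3.12 to 5.15%), 3.69% and 4.43%, and the SRF CArG box in 0.706% (0.353 to 1.26%), 0.966% and 1.03%, so for both the interval included the share of coding promoters. The GC box, ETS, CRE, NRF1, ZBTB33 and E-box motifs hold a CpG in their letters, and the YY1, ZNF143, RUNX, TATA, GATA, AP-1 and CEBP motifs hold none as written. The part of base composition in these shares was not tested. A match is only a match of letters and says nothing about binding.

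**Figure D5:**
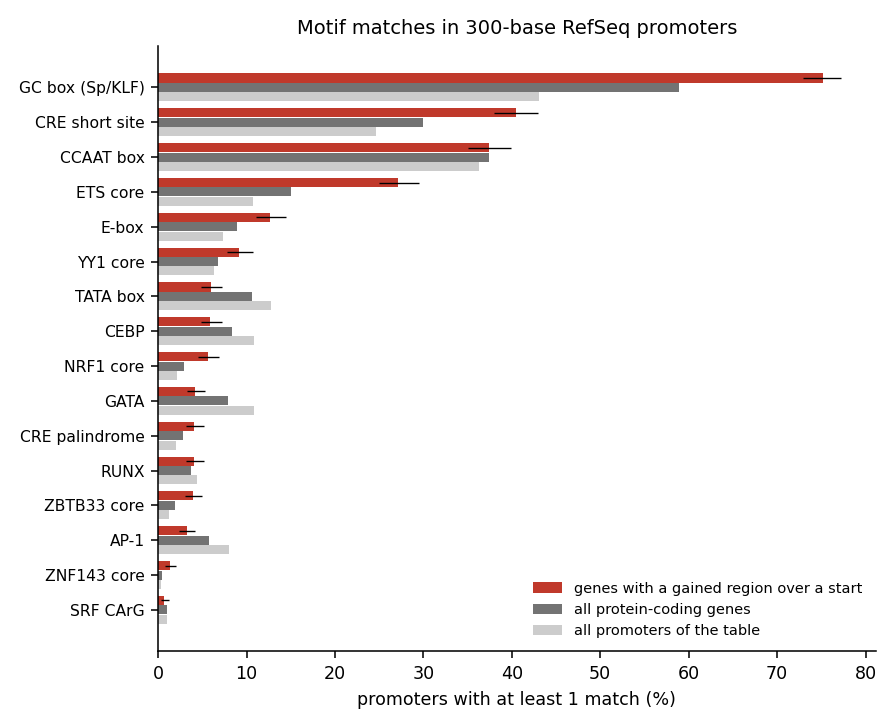
Percentage of 300-base RefSeq promoters with at least 1 match to each of 16 motifs, for 1557 genes with a gained region over a start (red, with 95% Clopper-Pearson intervals), 11179 protein-coding genes outside chromosome 7 (dark grey) and all 20992 promoters (light grey). The GC box is the most frequent in all 3 sets, at 75.1%, 58.9% and 43.1%.

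Within the genes with a gained start, level and fold were also set beside features of the promoter. Regions at CpG-rich promoters had median reads of 55.2 in knockdown cells and 27.04 in control cells and a median log2 fold of 0.85, against 37.0, 16.9 and 0.92 at the other 142. With a CCAAT box, median reads were 59.8 in knockdown cells and 30.7 in control cells, and without one 50.3 and 24.2, while the folds were 0.84 and 0.86. At the 93 genes with a TATA box, median reads were 46.6 in knockdown cells and 22.7 in control cells and the fold was 0.90. Without one the values were 54.4, 26.4 and 0.85 in the same order. The ETS core made little difference to either, with 52.5 reads in knockdown cells and 25.7 in control cells where it was present, 54.4 and 26.5 where it was absent, and a fold of 0.85 with it and 0.86 without. With the CRE palindrome the reads were 54.3 in knockdown cells and 25.7 in control cells and the fold 0.89, against 54.02, 26.2 and 0.85 without it. The 11 genes with an SRF CArG box had a fold of 0.71, against 0.86 for the others.

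The share of gained regions that lay over a start varied between chromosomes. It was 61.2% on chromosome 22 (30 of 49, interval 46.2 to 74.8%), 58.8% on chromosome 19 (141 of 240, 52.2 to 65.0%) and 52.8% on chromosome 16 (57 of 108, 42.9 to 62.5%). It was 26.5% on chromosome 6 (109 of 411, 22.3 to 31.1%) and 27.9% on chromosome 4 (161 of 578, 24.2 to 31.7%). Intervals overlap within the high and within the low shares, so their order is not firm. The share of coding genes with a gained start ran from 5.21% on chromosome 20 (28 of 537) and 5.76% on chromosome 22 (26 of 451) to 21.3% on chromosome 3 (227 of 1066) and 25.1% on chromosome 5 (227 of 904). The median log2 fold was largest on chromosome 21 (0.97), the X chromosome (0.95), chromosome 13 (0.94), chromosome 4 (0.93) and chromosome 5 (0.93), and smallest on chromosome 17 (0.77). Median control reads were lowest on the X chromosome (16.0). The rule left out 319 gained regions over starts of chromosome 7. Copy number was not measured here, and its part in the differences between chromosomes was not tested.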

How the data were processed

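Per the file headers, the authors deposited for every region 3 log2 means of normalised reads (all libraries, knockdown, control), a log2 fold, a p-value and an FDR, beside a feature, the nearest gene and the distance to its start. Reads given in the text are those log2 means raised to powers of 2, so 1 is the floor. The submitters' processing notes name Bowtie2 2.4.1, Picard 2.2.4, deepTools 1.5.12, MACS2 2.2.6 and hg38. Not given in the sources used here are the normalisation, the test, the merging of peaks and whether reads were shifted for the transposase. The listed regions passed an FDR of 0.05, and the regions not listed were not analysed here. With 52675 regions tested, the ranks implied near that FDR lie above the 8815 listed. Some regions that passed it therefore appear not to be listed.

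The group columns were identified from the overall mean, which weights them as 3 and 4 libraries (median weight 0.429 for the knockdown, within 0.001 in 98.5% of regions). The number tested, 52675, is the value that best makes the ranks implied by p-value and FDR whole (35.9% within 0.001). Only 5.80% of 2241 deposited starts lay within 1000 bp of a GRCh38.p14 start of the same gene, so deposited coordinates are given as they stand and read as hg19, which no source states. RefSeq served for gene types and promoter sequences, by gene ID.

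The members, named genes and lists were chosen with earlier results of these data known. The genes named are the largest folds, smallest FDR, most reads, widest regions, edges of the rule, leading genes of each list and a fixed set of Polycomb and leukaemia genes. One gene that this rule names is not reported here. No test was made, and intervals are exact Clopper-Pearson at 95%. In the lists, 1 symbol had no match and 55 genes of chromosome 7 were left out. The motif search was checked by planting each motif's own letters in simulated sequences. That checks the code only and gives no rate of stray matches. Software was matplotlib 3.10.9, scipy 1.17.1, numpy 2.4.6 and pandas 2.3.3 under Python 3.11.15. Alternatives covered FDR, fold, read and position thresholds, chromosome 7, 1 region per gene and the motif window.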

Additional observations from a re-analysis of the deposited data

How the results depend on the processing

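Of 2663 gained regions over a start, 1485 remained at an FDR of at most 0.01 and 661 at a log2 fold of at least 1, by construction of stricter limits. The share of gained regions over a start was 44.1% at that FDR, 21.1% at that fold and 46.8% with a mean of at least 10 reads, against 35.2%, so it depends on how low regions are treated. The median fold was 1.02 as the difference of group means, against 0.86. In the other 9 of 15 such comparisons (chromosome 7 kept, a start at least 50 bp inside, 1 region per gene, width and position) the values kept within 1.5 times or the main interval. Outside these comparisons, counts in most gene lists fell at the stricter limits. At an FDR of at most 0.01 there were 11 chaperone, 17 ribosomal protein, 17 splicing and 9 respiratory chain genes. At a log2 fold of at least 1 there were 4, 10, 4 and 7, against 19, 34, 26 and 18. The myeloid, lymphoid and erythroid lists had none at that FDR, while the sterol list kept its 5. Motif shares were lower on the gene strand only or within 100 bases, where less sequence is searched, except palindromes on 1 strand. With the first listed promoter of all 2187 genes, an alternative added after seeing the data, the ETS core was in 24.6% of promoters and the GC box in 71.8%, against 14.2% and 58.7% of coding promoters. No paired analysis was possible because only group means were deposited, and for the same reason no library could be left out. Depth per library is unknown.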

Other observations

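Of 197 lost regions outside chromosome 7, 20 lay over a start (10.2%, interval 6.31 to 15.2%), a share that has no background among all tested regions here. These 20 had median reads of 4.47 in knockdown cells and 14.8 in control cells and a median log2 fold of −0.94. KCNN3, a calcium-activated potassium channel gene, had 2.97 reads in knockdown cells and 15.7 in control cells (−1.35). The zinc finger genes ZNF878 and ZNF441 had −1.19 and −1.11, and the tubulin genes TUBB2A and TUBB4A −0.97 and −0.96. RUNX3, a relative of RUNX1, had 8.06 reads in knockdown cells and 19.4 in control cells (−0.91). UGDH, which makes UDP-glucuronate, had the most reads, with 60.8 in knockdown cells and 96.7 in control cells (−0.62). An overall mean under 10 reads was found in 45.0% of these 20, against 1.88% of gained regions over a start.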
